A study of Mus musculus with 3 samples.

Results

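The Ti+Se-Met library of MC3T3-E1 cells was set against the CTL library, over every gene whose FPKM reached 1 in either of the 2. FPKM is the number of fragments of a gene per kilobase of transcript, scaled to the size of the library. The rule kept 11084 of the 15287 genes in the deposited table. MC3T3-E1 is a wild type preosteoblast line from mouse calvaria. The CTL cells had no special treatment, the Ti+Se-Met cells were exposed for 24 h to 10 μg Ti particles per square centimetre together with 5 μM Se-Met, and the Ti cells for 24 h to the same particles alone. Each condition had 1 library, so there was no replicate check and no test, and each difference below is one between libraries. Since no library had Se-Met without particles, what Se-Met does to unexposed cells was not measured. The study's methods describe an incomplete medium for such a 24 h exposure, without naming the RNA-seq there.

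Preosteoblasts build bone by secreting a matrix of type I collagen, proteoglycans and adhesive proteins, which is then mineralized. Wear particles of titanium implants are known to provoke inflammation and to disturb this work of the osteoblast. Se-Met is the amino acid methionine with selenium in place of sulfur, and cells can use its selenium to make selenoproteins, among them antioxidant enzymes.

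Depth was estimated from the steps that single fragments leave in the low values of short genes, at 14150000 fragments in CTL, 14600000 with Ti alone and 10250000 with Ti+Se-Met. The estimate is approximate, since 46.7% to 57.9% of the low values lay on a step. Behind each fold stands a 95% interval, exact and binomial, from these fragments, which covers counting error only. Of 7 leukocyte markers in the deposited table, 2 passed the filter. These were Lyz2, at an FPKM of 26.7 (CTL) and 12.4 (Ti+Se-Met), and Cd14, at 5.70 and 14.8. Cd68 was at 0.06 and 0.42, Csf1r at 0.02 and 0.10 and Fcer1g at 0.13 and 0.00, while Ptprc and Adgre1 were not listed. Of the 13 markers of the mesenchymal osteoblast lineage, 10 passed the filter, led by Col1a2, Vim and Col1a1, while Sp7, which encodes osterix, stood at 0.63 and 0.54, Thy1 at 0.13 and 0.06, and Alpl at 1.51 and 0.20. The level of a gene in a library of bulk RNA does not separate fewer cells of a type from less RNA per cell, and the 2 cannot be told apart here.

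In Ti+Se-Met, 664 genes differed from CTL by 2-fold or more on the FPKM + 1 scale, which was 5.99% of the genes. Of these, 294 were higher (2.65%) and 370 were lower (3.34%). A difference of 1.5-fold or more was found for 2465 genes (22.2%), of which 1157 were higher (10.4%) and 1308 lower (11.8%), and 49 genes (0.442%) differed by 4-fold or more. The median difference over all genes was 0.01 in log2(FPKM + 1), with quartiles of -0.32 and 0.32. The split between higher and lower genes moved with the scaling. All FPKM together came to 448285 in CTL and 514568 with Ti+Se-Met, and setting these sums equal gave 169 higher and 601 lower genes, so that 21.9% of the genes past 2-fold were higher, against 44.3% as deposited. That scaling moved the median of all genes by -0.18. Differences of gene lists are therefore read against the median of all genes, and single genes near 2-fold higher depend on the scaling. Counts past 2-fold in a list are likewise to be set beside the shares of all genes, 2.65% higher and 3.34% lower. At the edge of the filter, 74 genes that passed had a highest FPKM under 1.1 and 86 genes left out reached 0.9. A gene that passed with an FPKM under 1 in either library did so only through the other. The counts of the lists include such genes. Of the genes past 2-fold, 140 had a highest FPKM under 5 and rest on few fragments.

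**Figure D1:**
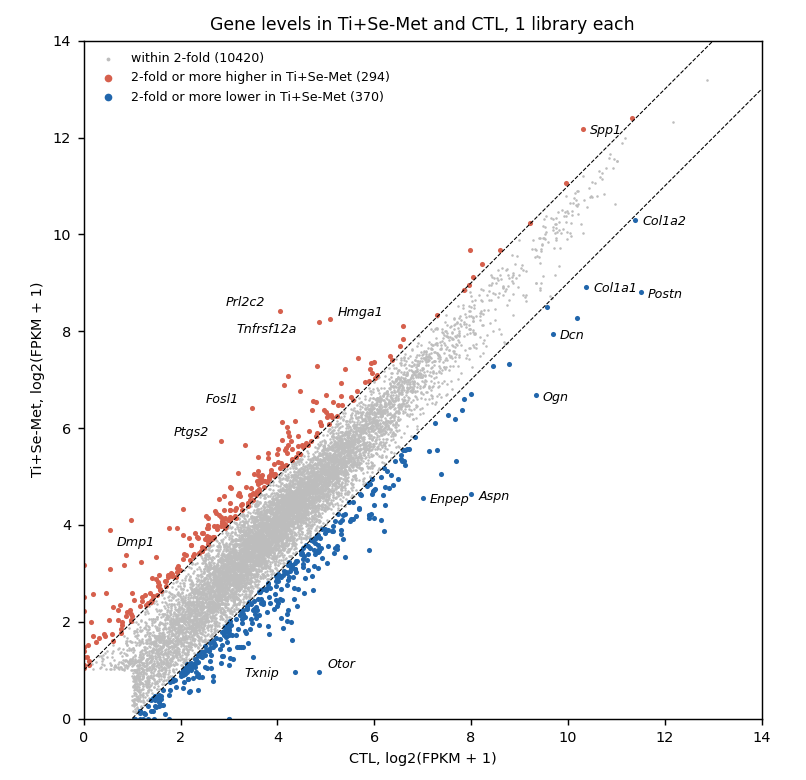
Level of each of the 11084 genes in CTL (horizontal axis) and in Ti+Se-Met (vertical axis), both in log2(FPKM + 1), with 1 library each and dashed lines at 2-fold. Orange points are the 294 genes 2-fold or more higher and blue points the 370 genes 2-fold or more lower in Ti+Se-Met, and abundant matrix genes such as Postn, Col1a1 and Ogn lie far below the diagonal while Prl2c2, Tnfrsf12a and Hmga1 lie far above it.

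Where the mean FPKM reached 5, the gene furthest above CTL in log2(FPKM + 1) was Prl2c2, a proliferin, a secreted protein of the prolactin family made by growing cells. Its FPKM was 15.5 in CTL, 351 with Ti and 341 with Ti+Se-Met, 22-fold above CTL (18.6 to 26). Its relative Prl2c3 went with it, at 0.97, 16.0 and 16.1. The proliferin genes are nearly identical in sequence, so the split of reads between them is uncertain. Tnfrsf12a, the receptor of the cytokine TWEAK, stood at 28.2, 278 and 289. The chromatin proteins Hmga1 (33.1, 324 and 302) and Hmga2 (27.1, 176 and 155) were 9.12-fold (8.42 to 9.88) and 5.74-fold (5.41 to 6.09) above CTL. For all of these the Ti and Ti+Se-Met libraries lay close together and both far above CTL. The other leading rises were Dmp1, Fosl1, Ptgs2, Il1rl1, Sgk1, Sema7a, Anxa8, Junb, Cdt1 and Dusp5. Anxa8, an annexin that binds membranes in a calcium-dependent way, was at 21.1, 75.6 and 108.

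The largest falls below CTL were led by Otor, a small secreted protein best known from cartilage and the inner ear, at 27.9 in CTL, 0.91 with Ti and 0.96 with Ti+Se-Met, 29.1-fold lower (14.3 to 66.6). Enpep, which encodes the aminopeptidase that cleaves angiotensin, was at 127, 18.9 and 22.6. Apod, a lipid-carrying lipocalin, was at 58.3, 9.47 and 10.1, and Abi3bp, a matrix protein, at 166, 26.9 and 32.1. Of the 15 largest falls, Aspn, Postn, Omd, Ogn, Adamts1, Abi3bp and Npnt encode matrix proteins or a matrix protease. The others were Otor, Txnip, Enpep, Apod, Pappa2, Ramp2, Ecrg4 and F830016B08Rik. Ramp2, a partner of the calcitonin receptor-like receptor, stood at 16.2, 4.82 and 2.63.

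Of the 11 small leucine-rich proteoglycans that passed the filter, which bind collagen fibrils and control their thickness, 8 (72.7%) were 2-fold or more lower and 0 higher, and their median difference was -1.54 against 0.01 for all genes. Beside it, the median difference of the same genes in the Ti library was -1.82. Aspn, which encodes asporin, an inhibitor of TGF-beta and of mineralization, stood at 256 in CTL, 25.4 with Ti and 23.8 with Ti+Se-Met, 10.8-fold lower (9.86 to 11.8). Ogn, which encodes osteoglycin, stood at 644, 130.4 and 101, and Omd, which encodes osteomodulin, at 18.8, 2.52 and 2.09. In these 3 genes the Ti+Se-Met value was below the Ti value, though by little for Aspn and Omd. No interval was computed between these 2 libraries. Dcn, which encodes decorin, was at 823, 232 and 246, and Prelp at 89.0, 22.0 and 29.9. Bgn, which encodes biglycan, was the least changed member, at 910.3, 601 and 838.

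Of 22 collagen chains that passed the filter, 7 (31.8%) were 2-fold or more lower, 0 were higher, and 21 had a lower value in Ti+Se-Met than in CTL. Their median difference was -0.52, and in the Ti library it was -1.01. The chains of type I collagen, the main protein of bone, were among the 7. Col1a1 was at 1333 in CTL, 354 with Ti and 482 with Ti+Se-Met, 2.77-fold below CTL (2.73 to 2.8), and Col1a2 was at 2688, 999 and 1257, 2.14-fold below (2.12 to 2.16). Col8a1 (73.9, 14.3 and 20.2), Col11a1 (11.2, 2.53 and 3.42), Col16a1 (69.2, 21.2 and 30.8), Col24a1 (5.34, 0.69 and 0.72) and Col27a1 (9.72, 3.77 and 4.27) were the others. In each of the 7 chains the Ti+Se-Met value lay between those of Ti and CTL and nearer to Ti. Col18a1, a chain of vessel and epithelial basement membranes, was the 1 chain above its CTL value, at 17.4, 12.7 and 21.3. Summed over the 22 chains, the FPKM was 7170.5 in CTL, 2931 with Ti and 3762.8 with Ti+Se-Met.

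The enzymes that modify, fold and crosslink collagen did not move in this way. Of 25 that passed the filter, 0 passed 2-fold in either direction and 1 was 1.5-fold or more lower, with a median of -0.21. Sparc, a collagen-binding protein of bone, was at 649 in CTL and 508 with Ti+Se-Met, and Pcolce, which speeds the trimming of procollagen, at 536 and 429. The elastic fibre list also had 0 of 10 genes past 2-fold, with a median of -0.16. At 1.5-fold it differed from the enzymes, with 4 of its 10 genes (40%) lower and 0 higher. With equal sums 2 of them were 2-fold or more lower. Efemp2 was at 185 and 193 and Emilin1 at 156 and 100.

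Matricellular proteins, which sit in the matrix and signal to cells, went both ways, with 4 higher (3 with equal sums) and 3 lower of 16. Postn, which encodes periostin and was among the most abundant transcripts of CTL, stood at 2904 in CTL, 420 with Ti and 447 with Ti+Se-Met, 6.5-fold lower (6.39 to 6.62). Npnt, which encodes nephronectin, an integrin ligand of developing bone, was at 18.5, 2.23 and 2.98, and Ccn3 at 1164, 336 and 306. Against these, Spp1, which encodes osteopontin, an acidic phosphoprotein of bone and of injured tissue, was at 1261, 3706 and 4659, 3.69-fold higher (3.64 to 3.75). Ccn5 was at 96.2, 295 and 228, and Ccn2, a target of TGF-beta and YAP, at 0.83, 1.90 and 3.31. The summed FPKM of the list was 6042.6 in CTL and 6201.6 in Ti+Se-Met.

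Among metalloproteinases and their inhibitors, 3 of 16 were 2-fold or more lower and 1 was higher. Adamts1, a protease of proteoglycans, was at 72.9 in CTL, 15.5 with Ti and 13.7 with Ti+Se-Met, and Mmp9, a gelatinase, at 9.48, 1.46 and 1.95. The inhibitor Timp3 was at 351, 131 and 155, whereas the inhibitor Timp1 was at 49.7, 202 and 173, 3.48-fold higher (3.14 to 3.86). These 4 genes are named because they passed 2-fold, so their directions do not describe the list. Its median was -0.27, with 5 of the 16 genes above CTL and 11 below. Of 20 integrins and laminins, Itga8 (3.58, 0.52 and 0.49), Itga1 (6.59, 1.95 and 2.73) and the basement membrane gene Nid2 (97.4, 28.1 and 39.0) were lower, and Itgb7 (2.81, 7.86 and 7.15) was higher, though under 2-fold with equal sums. Fn1, which encodes fibronectin, was at 1400.5, 1297 and 1756.

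**Figure D2:**
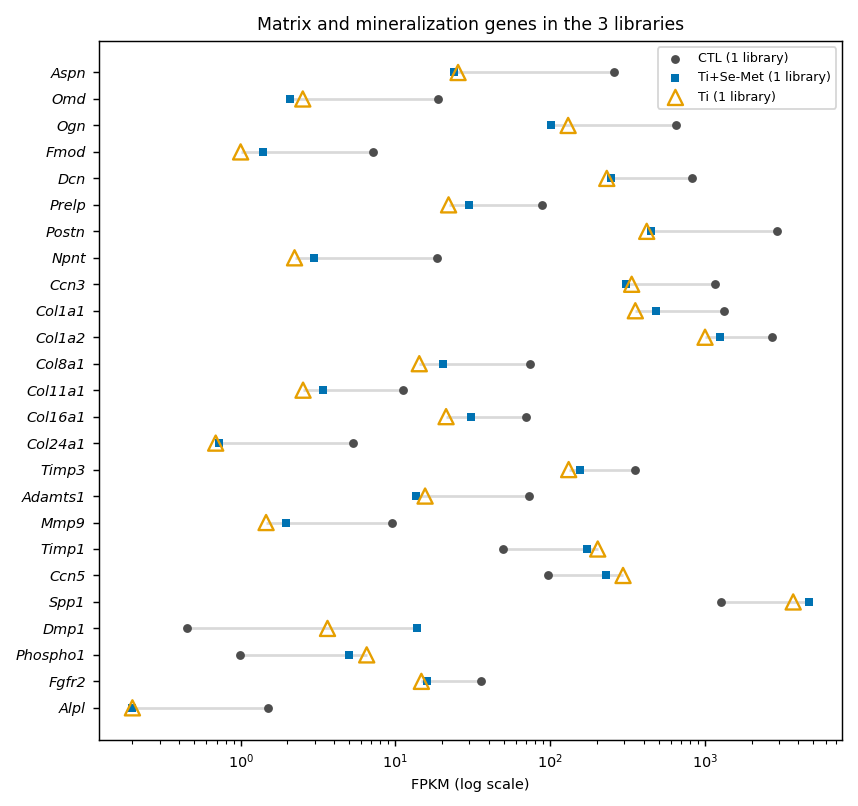
FPKM of 25 matrix and mineralization genes on a log axis in the CTL library (grey circles), the Ti+Se-Met library (blue squares) and the Ti library (open orange triangles), with 1 library each and a line from the lowest to the highest. For the first 18 genes, from Aspn to Mmp9, both exposed libraries lie to the left of CTL, and for Timp1, Ccn5, Spp1, Dmp1 and Phospho1 both lie to the right.

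Bone formation genes gave no single direction. Of 17 osteoblast and mineralization genes, 3 were 2-fold or more higher and 2 lower, with a median of -0.13. Among these, Dmp1 and Phospho1 passed the filter only through Ti+Se-Met and Alpl only through CTL, so nothing is read from the counts. By direction alone, 8 of the 17 genes were above CTL and 9 below. Runx2, the transcription factor that commits cells to the osteoblast lineage, was at 26.8 in CTL, 17.1 with Ti and 23.0 with Ti+Se-Met, 1.17-fold below CTL (1.09 to 1.25). Alpl, the phosphatase that frees phosphate for mineral, was low in all 3 libraries, at 1.51, 0.20 and 0.20. Fgfr2, a receptor that drives skull bone growth, was at 35.4, 14.7 and 16.0. On the other side, Dmp1, a mineral-binding protein made mainly by osteocytes, was at 0.45, 3.64 and 13.9, 30.8-fold above CTL (18.6 to 52.3), and Phospho1, a phosphatase of matrix vesicles, at 0.99, 6.52 and 5.02. Mgp, an inhibitor of calcification, was at 1439, 1885 and 2168. Ibsp was listed at 0 in CTL and Ti+Se-Met, and Bglap, which encodes osteocalcin, was at 0.46, 0.80 and 0.31. The osteocalcin genes Bglap and Bglap2 are near-identical copies, and neither value is precise.

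Signals that act on bone cells also differed one by one. In the BMP and TGF-beta list 3 of 32 genes were higher and 3 lower. The BMP antagonist Grem1 was at 41.0 in CTL, 125 with Ti and 149 with Ti+Se-Met, 3.63-fold higher (3.46 to 3.81), while another antagonist, Chrd, was at 6.79, 2.01 and 2.01. Tgfb1 was at 11.0, 24.96 and 28.9, whereas Tgfb2 was at 10.8, 4.28 and 3.93. The ligand Gdf6 was at 1.23, 0.40 and 0.08. Antagonists and ligands were thus found on both sides of CTL.

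Of 30 genes of the Wnt pathway, which promotes bone formation through β-catenin, 4 were 2-fold or more lower and 1 was higher. Ctnnb1, which encodes β-catenin, was at 253 in CTL, 196 with Ti and 199 with Ti+Se-Met, 1.27-fold below CTL (1.23 to 1.31). Axin2, a target and brake of the pathway, was at 8.70, 2.98 and 2.94. The ligand Wnt10b was at 18.0, 5.76 and 8.45, and the secreted Wnt binders Sfrp2 and Wif1 were at 34.6, 11.2 and 14.8 and at 3.39, 1.03 and 0.94. Lgr6, a receptor for R-spondins, was at 0.06, 0.96 and 1.88. Lgr6 passed the filter only through Ti+Se-Met, and Wif1 only through CTL. Under the scalings, 3 to 4 genes of the list were lower. The lower genes thus held a ligand, a target and binders that restrain Wnt signals.

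In the IGF axis, 3 of 13 genes were 2-fold or more lower and 0 higher. Igf1 was at 58.2 in CTL, 18.8 with Ti and 16.7 with Ti+Se-Met, 3.48-fold lower (2.99 to 4.04), and Igf2 at 58.5, 16.9 and 17.6. Pappa2, a protease that frees IGF from its binding proteins, was at 205, 41.7 and 38.9, 5.27-fold lower (5.1 to 5.46). Both growth factors and this protease were thus lower together. Of 10 factors by which osteoblasts control osteoclasts, Sema3a, a repellent that restrains osteoclasts, was the 1 past 2-fold, at 98.9, 39.0 and 45.8. Csf1 was at 138, 168 and 176, and Tnfrsf11b, which encodes osteoprotegerin, at 13.6, 8.38 and 13.1.

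Of the lists with at least 5 genes, that of ERK feedback and output genes held the largest share of higher genes. The ERK cascade carries growth factor signals, and its output genes include phosphatases that switch it off again. Of 29 that passed the filter, 15 (51.7%) were 2-fold or more higher in Ti+Se-Met than in CTL and 0 lower, with a median of 1.00, and the count was 11 to 16 under the other scalings. Etv4, an ETS transcription factor, was at 0.14 in CTL, 4.93 with Ti and 4.96 with Ti+Se-Met. The ERK phosphatases Dusp4 and Dusp5 were at 0.37, 4.89 and 5.07 and at 2.39, 10.2 and 14.3. Etv4 and Dusp4 passed the filter only through Ti+Se-Met. Plaur, the urokinase receptor, was at 5.95, 19.1 and 22.3, 3.74-fold above CTL (3.01 to 4.68). Transcription factors and phosphatases of the pathway were thus higher together. Not every member followed. Ccnd1 was at 250.3, 263 and 265, Spry1 at 3.02, 2.45 and 2.74, and Etv1 at 6.34, 5.87 and 6.49.

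AP-1 is a pair of Fos and Jun proteins that binds DNA and answers to growth signals and stress, and 4 of its 10 genes were 2-fold or more higher with 0 lower, under each scaling. Fosl1, which encodes Fra-1, was at 10.2 in CTL, 88.5 with Ti and 84.3 with Ti+Se-Met, 8.28-fold above CTL (7.23 to 9.51). Junb was at 9.12, 50.4 and 49.1, Maff at 1.83, 10.1 and 9.13, and Fos, which passed the filter only through Ti+Se-Met, at 0.43, 3.58 and 3.07. In all 4 the Ti+Se-Met value was slightly under the Ti value and several times the CTL value. Among 8 genes known to be induced by glucocorticoids, 3 were higher (2 with equal sums) and 1 lower. Sgk1, a kinase that regulates ion channels, was at 16.6, 117 and 117, 7.03-fold higher (6.43 to 7.7), whereas Tsc22d3, which encodes the protein GILZ, was at 63.2, 19.1 and 16.6.

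**Figure D3:**
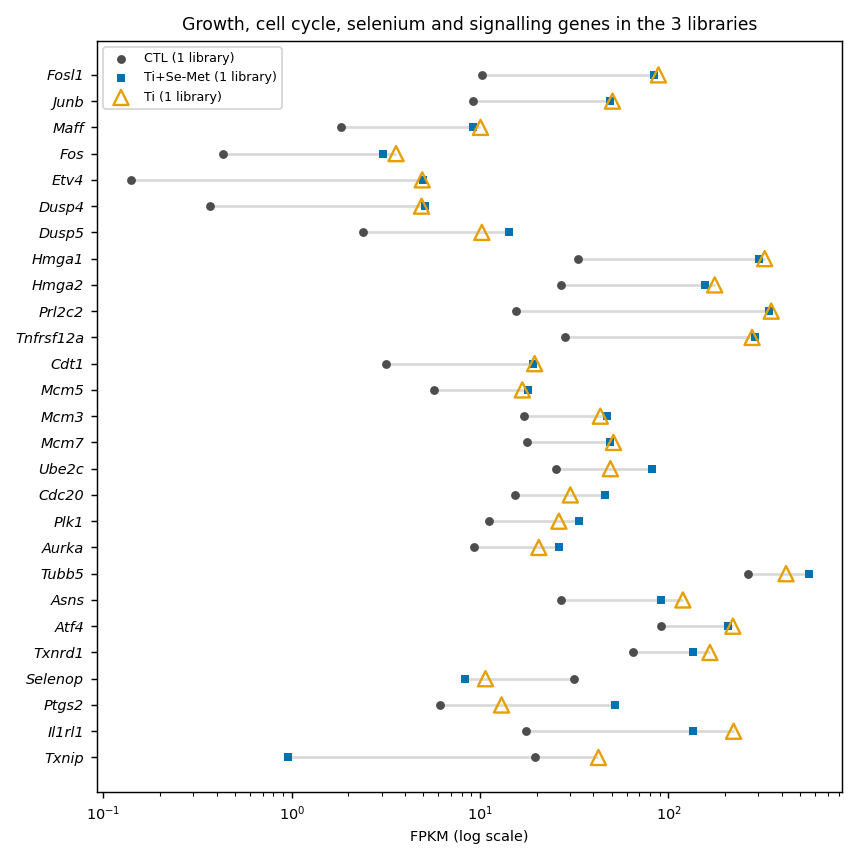
FPKM of 27 growth, cell cycle, selenium and signalling genes on a log axis in the CTL library (grey circles), the Ti+Se-Met library (blue squares) and the Ti library (open orange triangles), with 1 library each and a line from the lowest to the highest. Selenop and Txnip are the 2 genes whose Ti+Se-Met point lies to the left of CTL, and for Ube2c, Cdc20, Plk1, Aurka, Tubb5 and Ptgs2 the Ti+Se-Met point lies to the right of both others.

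Genes of cell division were higher across almost the whole list. All 57 mitosis and spindle genes that passed the filter had a higher value in Ti+Se-Met than in CTL, 43 of them by 1.5-fold or more and 17 (29.8%) by 2-fold or more. Their median difference was 0.89, and 0.52 in the Ti library. With other scalings 9 to 19 passed 2-fold. Ube2c, an enzyme that marks mitotic proteins for destruction, was at 25.2 in CTL, 49.2 with Ti and 81.6 with Ti+Se-Met, 3.24-fold above CTL (2.82 to 3.73). Cdc20, which activates the same ligase, was at 15.2, 30.1 and 46.2, the mitotic kinase Plk1 at 11.1, 26.2 and 33.7, and the kinase Aurka at 9.25, 20.5 and 26.4. In each of these 4 genes the level was lowest in CTL and highest in Ti+Se-Met. Mki67, the gene of the proliferation antigen Ki-67, was at 17.3, 16.3 and 27.2.

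Of 58 genes of the G1/S transition and DNA replication, 19 (32.8%) were 2-fold or more higher and 0 lower, with a median of 0.77, and 8 to 19 passed 2-fold under other scalings. Cdt1, which loads the replicative helicase onto origins, was at 3.16 in CTL, 19.5 with Ti and 19.1 with Ti+Se-Met, 6.04-fold above CTL (4.81 to 7.69). Subunits of that helicase, Mcm3 (17.1, 43.5 and 47.4), Mcm5 (5.67, 16.8 and 18.0) and Mcm7 (17.7, 51.1 and 49.0), were higher by similar amounts, between 2.77-fold and 3.17-fold. Chaf1b, a subunit of the factor that places histones on new DNA, was at 4.03, 14.6 and 12.5. In these 5 genes the exposed libraries lay closer to each other than to CTL. Of 20 replication-dependent histone genes that passed the filter, 5 were past 2-fold, H3c3 at 0.50, 1.26 and 2.35, and H4c2, H2ac13, H4c18 and H2ac24, which were listed at 0 in CTL and passed the filter only through Ti+Se-Met, so that nothing is read from this count. The summed FPKM of the 20 genes was 117.8 in both libraries. Histone genes are near-identical copies, and their values are uncertain. Of 28 p53 targets, 1 was higher (Gadd45a, 6.92, 13.7 and 16.2, under 2-fold with equal sums) and 3 were lower, namely Trp53inp1 (32.0, 22.5 and 10.9), Sesn1 (50.6, 18.1 and 19.0) and Fas (16.0, 8.25 and 6.58). Cdkn1a, the cell cycle inhibitor p21, was at 154, 253 and 214.

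The promoters of these lists shared letters. RefSeq promoters of GRCm38.p6 were matched for 8914 of the 11084 genes (80.4%), and the 250 bases before the start were searched on both strands. The letters CCAAT, the core of the site of the factor NF-Y, were found in 34 of 47 promoters of mitosis genes (72.3%) and in 28 of 47 of G1/S genes (59.6%), against 37.7% of all promoters and 43.3% of those of genes 2-fold or more higher. The letters TTTCGCGC, a strict form of the E2F site, were found in 4 of 47 G1/S promoters (8.51%) against 0.55% of all promoters. All 4 genes were 2-fold or more higher, as were 11 of the 34 mitosis genes with CCAAT. Over the whole lists, 32.8% of the G1/S genes and 29.8% of the mitosis genes were 2-fold or more higher. The count with CCAAT is thus near the share of its list, and 4 genes are too few to read. Neither of the motifs CCAAT and TTTCGCGC contains the other. E-box letters (CACGTG) were found in 8 of 47 G1/S promoters (17%) and 8.69% of all, and AP-1 letters (TGANTCA) in 6.44% of the promoters of higher genes, 7.04% of those of lower genes and 4.13% of all. A match is a description of the letters and not a bound site. The promoters below are those of the 3 mitosis genes with the largest differences among those with CCAAT, and of the 2 such G1/S genes with TTTCGCGC. Each is given 5′ to 3′ on the gene's strand, and capitals mark the letters or their reverse complement. Ube2c holds 6 matches, of which 2 overlap, Cdc20 holds 2, and the others hold 1 each.
Ube2c (GRCm38.p6 chr2:164769679-164769928, plus strand): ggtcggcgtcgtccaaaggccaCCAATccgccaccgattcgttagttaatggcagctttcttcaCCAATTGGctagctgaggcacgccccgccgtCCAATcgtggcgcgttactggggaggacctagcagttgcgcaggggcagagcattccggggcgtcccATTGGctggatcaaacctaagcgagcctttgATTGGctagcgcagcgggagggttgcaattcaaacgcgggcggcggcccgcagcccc
Cdc20 (GRCm38.p6 chr4:118437344-118437593, minus strand): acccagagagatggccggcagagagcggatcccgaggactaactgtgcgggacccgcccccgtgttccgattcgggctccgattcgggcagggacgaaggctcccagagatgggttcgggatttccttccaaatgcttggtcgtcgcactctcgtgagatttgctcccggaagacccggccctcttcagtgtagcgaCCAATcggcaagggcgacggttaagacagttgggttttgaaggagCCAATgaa
Plk1 (GRCm38.p6 chr7:122159185-122159434, plus strand): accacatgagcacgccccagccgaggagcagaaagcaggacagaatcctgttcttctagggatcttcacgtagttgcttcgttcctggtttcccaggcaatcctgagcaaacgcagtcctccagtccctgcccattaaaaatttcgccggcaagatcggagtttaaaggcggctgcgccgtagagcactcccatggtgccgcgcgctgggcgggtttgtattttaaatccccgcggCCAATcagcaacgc
Mcm5 (GRCm38.p6 chr8:75109259-75109508, plus strand): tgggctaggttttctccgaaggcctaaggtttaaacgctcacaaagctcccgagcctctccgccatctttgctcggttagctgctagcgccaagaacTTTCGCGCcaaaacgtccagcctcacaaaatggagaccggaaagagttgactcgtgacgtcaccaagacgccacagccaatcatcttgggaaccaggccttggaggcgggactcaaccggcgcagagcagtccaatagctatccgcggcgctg
Rfc3 (GRCm38.p6 chr5:151651209-151651458, minus strand): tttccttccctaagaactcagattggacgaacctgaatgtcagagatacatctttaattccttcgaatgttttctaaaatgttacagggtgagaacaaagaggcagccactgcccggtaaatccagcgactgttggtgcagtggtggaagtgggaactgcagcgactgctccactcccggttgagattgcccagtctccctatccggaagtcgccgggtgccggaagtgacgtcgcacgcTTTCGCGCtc

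Rfc3, a subunit of the clamp loader of DNA replication, was at 9.84 in CTL, 23.9 with Ti and 23.6 with Ti+Se-Met, 2.4-fold above CTL, so that the promoters shown belong to genes between 2.4-fold and 3.24-fold above CTL.

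**Figure D4:**
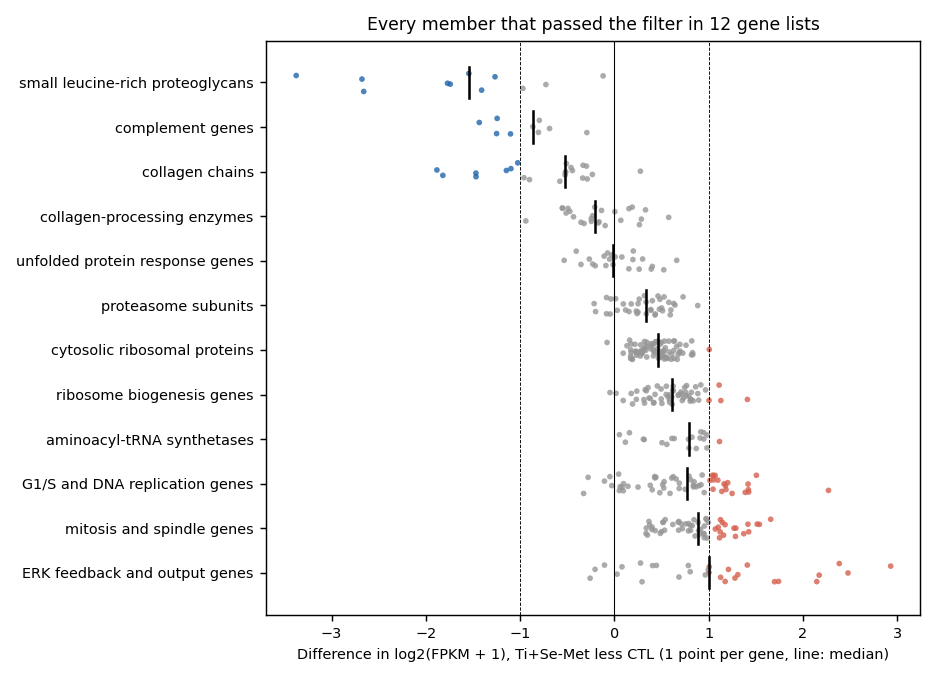
Difference in log2(FPKM + 1), Ti+Se-Met less CTL (horizontal axis), of every gene that passed the filter in 12 gene lists, with 1 point per gene, a black line at the median of each list and dashed lines at 2-fold. All points of the small leucine-rich proteoglycans and of the complement genes lie below 0, and all points of the mitosis and spindle genes and of the tRNA synthetases lie above 0.

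Genes for making proteins were higher by small and even amounts. Of 57 ribosome biogenesis genes, 32 were 1.5-fold or more higher and 4 passed 2-fold (1 with equal sums), with 0 lower at either threshold. The median was 0.61, and 0.96 in the Ti library. Nhp2, of the particles that modify ribosomal RNA, was at 20.3 in CTL, 77.1 with Ti and 55.8 with Ti+Se-Met. Nop2 was at 21.1, 67.3 and 43.3, and Fbl, which encodes fibrillarin, at 55.3, 118 and 122. For Nhp2 and Nop2 the Ti+Se-Met value lay between the others. Of 83 ribosomal protein genes, 82 were above their CTL value, 19 by 1.5-fold or more and 1 (Rpl38, 598, 1005 and 1203) by 2-fold or more. Their summed FPKM was 75330.5 in CTL and 105143 with Ti+Se-Met, and with equal sums 0 of them passed 2-fold. Ribosomal protein genes have many pseudogene copies that can share their reads. Among 32 initiation factors, Eif4ebp1, a repressor of cap-dependent translation, was the 1 past 2-fold, at 60.1, 195 and 161.

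All 20 cytosolic aminoacyl-tRNA synthetases of the list, which charge tRNA with amino acids, were above CTL, 13 of them by 1.5-fold or more, with a median of 0.79. The list leaves out the mitochondrial enzymes, and the wider KEGG term Aminoacyl-tRNA biosynthesis, with 44 genes, had 33 above and 11 below CTL and a median of 0.25. Aars was at 48.9 in CTL, 146 with Ti and 107 with Ti+Se-Met, and Gars at 67.0, 151 and 130.2. ATF4 is the transcription factor of amino acid shortage and related stress, and 7 of 22 of its targets were 2-fold or more higher with 0 lower (5 with equal sums). Asns, which makes asparagine, was at 26.9, 119 and 91.4, 3.4-fold above CTL (3.11 to 3.71). Trib3, a pseudokinase that restrains the response, was at 4.73, 31.3 and 17.2, Nupr1 at 31.1, 116 and 102, and Cebpb at 39.0, 144 and 121. Atf4 itself was at 91.0, 219.8 and 207. All 5 lay between CTL and Ti and nearer to Ti, except Trib3, which on the linear scale was about midway. Of 23 genes of the unfolded protein response, 0 passed 2-fold and the median was -0.01, with the chaperone Hsp90b1 at 685, 354 and 473 and Calr at 429, 273 and 373. Of 38 proteasome subunits 0 passed 2-fold, at a median of 0.34. Of 38 heat shock and chaperonin genes Hspa4l alone passed, at 8.28, 16.8 and 24.3, while Hsp90ab1 was at 861, 1052 and 1190.2.

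In the lists of energy and lipid metabolism, the genes past 2-fold were few in number. Of 79 respiratory chain subunits 1 (1.27%) passed 2-fold, Cox6a2, a low gene at 1.62 in CTL and 4.35 with Ti+Se-Met. That share is under the 2.65% of all genes that were higher. Even so, 70 of the 79 were above their CTL value, with a median of 0.26, whereas 5652 of all 11084 genes were above theirs. Of 29 glycolysis and hypoxia genes, 3 were higher and 0 lower at a median of 0.09. Hk2, the hexokinase of growing and glucose-hungry cells, was at 7.23 in CTL, 22.5 with Ti and 26.2 with Ti+Se-Met, 3.62-fold higher (3.28 to 4), the glucose transporter gene Slc2a1 at 25.1, 36.5 and 52.2, and the vessel growth factor gene Vegfa at 31.2, 94.4 and 79.1. Gapdh was at 1594, 2628 and 2523. Of 33 genes of cholesterol and fatty acid synthesis, Elovl6, which lengthens fatty acids, was the 1 past 2-fold, at 62.7, 18.2 and 20.2. In the one-carbon and methionine list, Shmt2 (38.5, 126 and 99.6) and Mthfd2 (27.2, 54.4 and 58.6), both enzymes of mitochondrial folate metabolism, were the 2 of 17 that were higher. Slc2a1, Mthfd2 and Cox6a2 were under 2-fold with equal sums.

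Of 20 selenoprotein genes that passed the filter, 3 were 2-fold or more higher and 1 lower, and 7 were 1.5-fold or more higher and 2 lower. Their median was 0.22, beside 0.23 in the Ti library, and 14 of the 20 were above CTL. Txnrd1, which encodes thioredoxin reductase 1, was at 65.2 in CTL, 166 with Ti and 135 with Ti+Se-Met, Selenoh at 36.8, 70.5 and 75.4, and Dio3, a deiodinase that inactivates thyroid hormone, at 0.97, 3.53 and 3.44. With equal sums Txnrd1 and Selenoh were under 2-fold. Dio3 passed the filter only through Ti+Se-Met, so nothing is read from the 3 genes past 2-fold higher. Selenop, the secreted carrier of selenium, was lower, at 31.6, 10.7 and 8.31, 3.8-fold below CTL (3.21 to 4.51). The glutathione peroxidases Gpx1 (157, 282 and 261) and Gpx4 (338, 654 and 569) were above CTL by less than 2-fold. Of 11 genes of the machinery that inserts selenocysteine, 0 passed 2-fold.

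Of 40 NRF2 targets and antioxidant genes, 3 were 2-fold or more higher, 14 were 1.5-fold or more higher and 2 were 2-fold or more lower. Sqstm1, an autophagy receptor, was at 299 in CTL, 1024 with Ti and 666 with Ti+Se-Met, 2.23-fold above CTL (2.17 to 2.28), and the ferritin light chain gene Ftl1 at 2575, 5415 and 5386. The 3 higher genes, Sqstm1, Ftl1 and Txnrd1, were under 2-fold with equal sums. Aox1 (23.7, 7.05 and 7.37) and Gstm1 (256, 115 and 103) were the 2 lower ones. Hmox1, which encodes the heme-degrading enzyme heme oxygenase 1, was at 54.8, 204 and 96.5, nearer to CTL in Ti+Se-Met than in Ti, and Nqo1 was at 52.1, 97.6 and 91.6. The antioxidant genes therefore stood mostly above CTL, few of them by 2-fold.

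Txnip stood apart from every other gene of its list. It encodes the thioredoxin-interacting protein, which binds thioredoxin and limits glucose uptake, and it was at 19.6 in CTL, 42.5 with Ti and 0.96 with Ti+Se-Met. It was thus 20.4-fold below CTL (13.9 to 31.6) in Ti+Se-Met while in Ti it was above CTL. Its relative Arrdc4 was at 1.77, 4.23 and 1.39, and the other 5 genes of that list lay within 2-fold of CTL. A few other genes past 2-fold from CTL also differed widely between the exposed libraries, and these were chosen after their values were seen. The kinase gene Pim1 was at 6.49, 7.85 and 18.7, Sema7a, a membrane-anchored semaphorin, at 0.82, 4.05 and 9.42, and the cyclin gene Ccnb2 at 9.94, 12.7 and 23.4.

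Among inflammation genes, single members stood on both sides of CTL. Ptgs2, which encodes the cyclooxygenase COX-2, was at 6.10 in CTL, 13.0 with Ti and 51.8 with Ti+Se-Met, 8.5-fold above CTL (7.62 to 9.52), and it was the 1 gene past 2-fold of 9 in the prostaglandin list. Ptges was at 51.7, 58.9 and 55.0. Nos2, the inducible nitric oxide synthase, was low throughout, at 0.17, 0.06 and 0.12. Of 25 NF-kB, chemokine and cytokine genes, Bcl3 (0.63, 2.78 and 3.70) was higher, and the chemokine gene Ccl5 (20.03, 3.86 and 4.04) and the apoptosis inhibitor gene Birc2 (22.7, 7.41 and 6.53) were lower. Of the list, 4% of the genes were thus 2-fold or more higher and 8% lower, against 2.65% and 3.34% of all genes. With 25 genes nothing is read from these counts. Il6 was at 0.99, 0.68 and 1.35 and Ccl2 at 22.1, 37.5 and 34.7.

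Among 11 genes of the interleukin-1 receptor family, 3 were higher and 0 lower. Il1rl1, which encodes ST2, the receptor of interleukin-33, was at 17.6 in CTL, 222 with Ti and 135 with Ti+Se-Met, 7.68-fold above CTL (7.05 to 8.37). Irak3, a brake of the pathway, was at 1.88, 5.49 and 5.65 and Irak2, a kinase that carries its signal, at 9.53, 15.8 and 20.99. Of 23 genes of the TNF superfamily and its adaptors, 4 were higher and 2 lower. Beside Tnfrsf12a, the receptor genes Tnfrsf9 (17.8, 45.3 and 55.8), Tnfrsf23 (3.48, 13.3 and 12.2) and Tnfrsf1b (8.58, 20.4 and 18.8) were higher, and Tnfrsf19 (3.50, 0.39 and 0.47) and Fas were lower. With equal sums Irak2 and Tnfrsf1b were under 2-fold. Bmf, which encodes a BH3-only protein, was the 1 gene past 2-fold of 28 inflammasome, caspase and BCL2 family genes, at 3.61, 1.05 and 1.23. That is 3.57% of the list lower, near the 3.34% of all genes. Nlrp3 and Il1b are not listed in the table and were not analysed here.

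Complement genes were lower as a group. Of 9 that passed the filter, 4 (44.4%) were 2-fold or more lower, 8 were 1.5-fold or more lower and 0 were higher, with a median of -0.86. C1s1, a protease of the first complement component, was at 223 in CTL, 64.5 with Ti and 82.2 with Ti+Se-Met, 2.72-fold lower (2.6 to 2.85). Masp1 and Masp2, proteases of the lectin pathway, were at 85.1, 38.6 and 39.1 and at 2.74, 0.83 and 0.58. All 3 are proteases that start the cascade. Of 34 interferon-stimulated genes, 1 was higher (Ifitm1, 63.2, 79.8 and 164) and 1 was lower (Gbp3, 11.7, 3.99 and 5.27). Each is 2.94% of that list, near the shares of all genes (2.65% higher and 3.34% lower). By direction alone, 24 of the 34 were below CTL and 10 above, with a median of -0.25 against 0.01 for all genes. Of the leukocyte markers, 2 passed the filter, Lyz2 (26.7, 14.8 and 12.4), which was lower, and Cd14 (5.70, 16.6 and 14.8), which was higher, and their summed FPKM was 32.4 in CTL and 27.2 in Ti+Se-Met. The part of other cells in these results was not tested.

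Of 17 genes of the tubulin list, which also holds Stmn1, Tbca and Tbcb, genes of proteins that bind or fold tubulin, 6 were 2-fold or more higher, Stmn1 among them, and 0 lower, with a median of 0.63, and 3 passed with equal sums. Tubb6 was at 31.8 in CTL, 61.1 with Ti and 76.6 with Ti+Se-Met, Tubb3 at 6.16, 13.2 and 16.9, Tuba4a at 3.34, 11.7 and 9.40, and Tubb5 at 263, 421 and 554, 2.11-fold above CTL (2.05 to 2.16). Actin, SRF and YAP genes held 3 higher and 0 lower of 36, namely Tead4 (3.67, 8.50 and 11.1), Ccn2 and Tagln2 (61.2, 105 and 139). With equal sums 2 of that list were higher and 2 lower. Of 15 cadherins and ephrins, Fat4 (14.4, 4.24 and 4.98) and Efnb1 (37.2, 17.3 and 17.6) were lower. The circadian repressor genes Nr1d1 (28.6, 41.7 and 68.6) and Bhlhe40 (21.8, 42.4 and 49.5) were the 2 of 15 clock genes that were higher. With equal sums 1 clock gene was higher and 2 were lower.

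**Figure D5:**
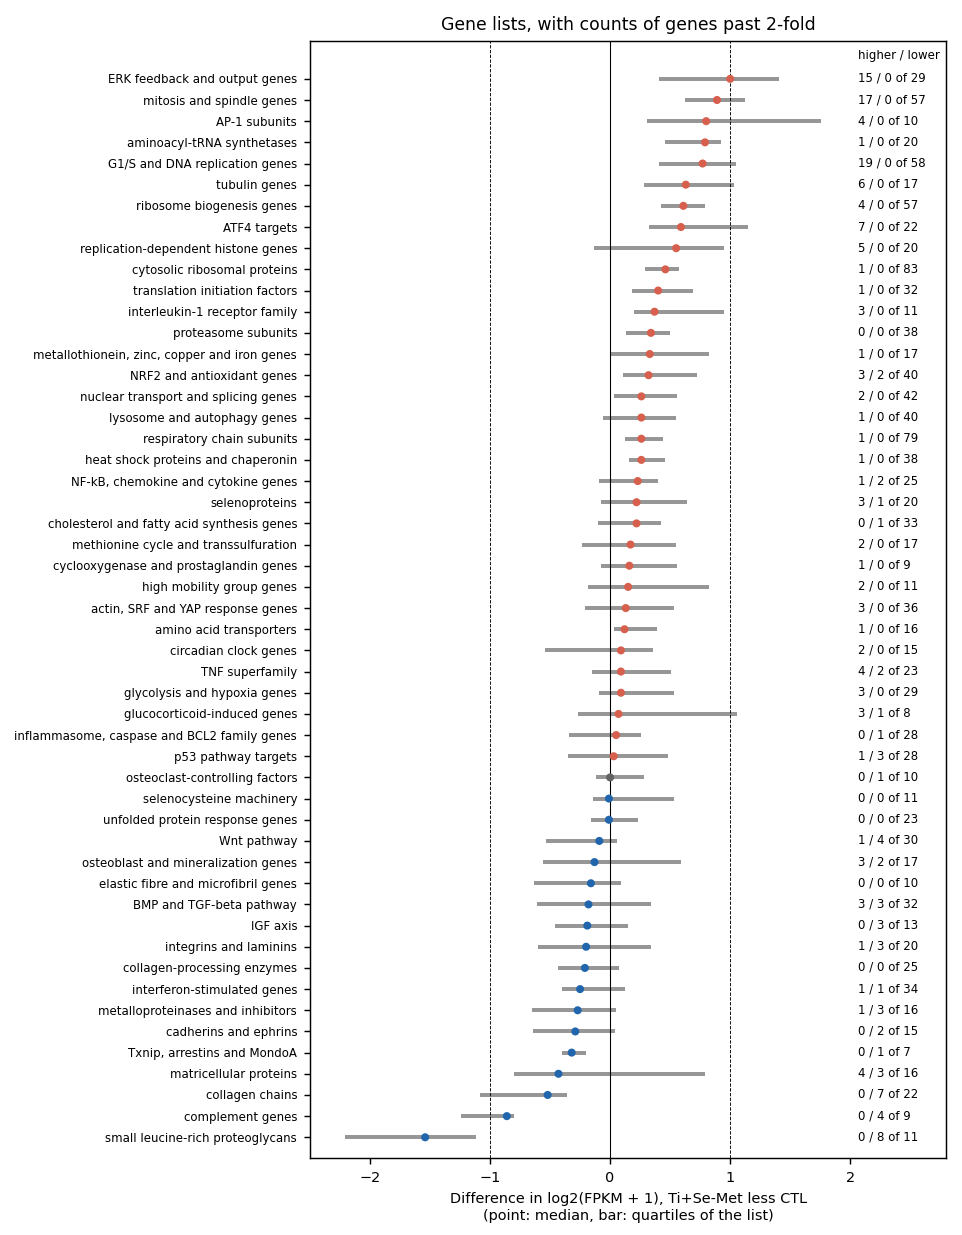
Median difference in log2(FPKM + 1), Ti+Se-Met less CTL, of the 51 gene lists with at least 5 genes that passed the filter (points, orange above 0 and blue below 0), with bars from the lower to the upper quartile of the list and dashed lines at 2-fold. The numbers give the genes 2-fold or more higher and lower, and the lists run from the ERK genes at 1.00 to the small leucine-rich proteoglycans at -1.54.

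Over the 51 lists with at least 5 genes that passed the filter, 24 held genes past 2-fold only on the higher side, 9 only on the lower side, 13 on both sides and 5 on neither. The lists held 180 of the 664 genes past 2-fold (27.1%), so 484 lay outside them. Counted by the KEGG terms that the table assigns to genes, DNA replication had 9 of 34 genes 2-fold or more higher (26.5%) and 0 lower, and the cell cycle term 18 of 113 higher (15.9%) and 1 lower. The MAPK signaling term had 16 of 205 higher (7.8%) and 7 lower. With equal sums the higher genes of DNA replication, cell cycle and MAPK signaling numbered 4, 7 and 9. On the lower side, protein digestion and absorption, which holds the collagen genes, had 6 of 29 lower (20.7%) and 1 higher, and ECM-receptor interaction had 6 of 45 lower (13.3%) and 2 higher. Complement and coagulation cascades had 5 of 26 in each direction. The terms for the TCA cycle (28 genes), the pentose phosphate pathway (20), steroid biosynthesis (15), proteasome (43), RNA polymerase (27) and protein export (26) had 0 genes past 2-fold. Since 5.99% of all genes passed, terms this small would hold few, and nothing is read from the 0. At 1.5-fold, 25.9% of the RNA polymerase genes were higher and 3.7% lower. For the proteasome term, 18.6% were higher and 0 lower. Over all genes, 10.4% were higher and 11.8% lower.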

How the data were processed

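RNA-seq was examined in 3 libraries of MC3T3-E1 cells, 1 from each condition. Reads of low quality or with adapters were taken out by the authors, who used HISAT2 to align, SAMtools to handle alignments and HTSeq to count, and what they deposited is 1 FPKM per gene and library, with 2 decimals. The submitters' processing notes also name StringTie and the build mm9. How FPKM was made, and whether counting used strand, are not given in the sources used here, so overlapping and antisense genes cannot be told apart. The columns were assigned to libraries by name, and 0 columns remained without one.

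Python 3.11.15 was used with pandas 2.3.3, scipy 1.17.1, matplotlib 3.10.9 and numpy 2.4.6 to compute and plot differences in log2(FPKM + 1). Genes had to reach an FPKM of 1 in CTL or Ti+Se-Met. A gene was counted past 2-fold on the FPKM + 1 scale, and the folds printed are plain ratios of FPKM. A count model was not applied, since FPKM are no counts. Depth was fitted on short genes with 1 transcript of 350 to 1000 bases in GENCODE M21, less 150 bases. Lengths were found for 98.1% of the genes. The steps were tested on simulated data.

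The genes named are the 15 largest rises and 15 largest falls whose mean FPKM reached 5, in each list up to 6 genes with the largest differences past 2-fold or the 2 most abundant, and 13 genes the study follows by name. Other genes named were chosen after their values were seen, and a few genes that the rule names are not reported here. The members and lists were chosen with earlier results of these data known. No coordinate of the files was used, and the RefSeq promoters are of another build than mm9. The 3 counts over all genes were repeated at pseudocounts of 0.1 and 5, without the filter, over genes whose mean FPKM reached 5, past 1.5-fold and 4-fold, and under 3 scalings. List medians were repeated at the pseudocounts, the mean FPKM and the scalings, and list counts under the scalings and past 1.5-fold.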

Additional observations from a re-analysis of the deposited data

How the results depend on the processing

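A pseudocount of 0.1 gave 1104 genes past 2-fold, of which 685 were lower, and a pseudocount of 5 gave 243, with 121 higher and 122 lower. With a mean FPKM of at least 5, 236 genes were lower. A threshold of 1.5-fold gave 2465 genes (1157 higher, 1308 lower) and one of 4-fold gave 49 (25 higher, 24 lower). Setting equal sums gave 169 higher and 601 lower genes. Leaving out the filter gave the same counts, since a gene under an FPKM of 1 cannot pass 2-fold on this scale. Of the 204 named genes, 63 fell under 2-fold with a pseudocount of 5, 27 with equal sums, 13 with upper-quartile scaling and 2 with median-of-ratios scaling, and 0 changed direction past 2-fold. No paired analysis was possible because a condition is a single library here, which also means that none could be left out. Low values are least precise with Ti+Se-Met, which had the fewest fragments.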

Other observations

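Some families were looked at after their values were seen, and a few of their genes also stand in the lists above. Over all genes, 3.34% were 2-fold or more lower, 2.65% were 2-fold or more higher and 11.8% were 1.5-fold or more lower. Of 8 guanylate-binding proteins that passed the filter, which are interferon-induced GTPases that act against microbes inside cells, 6 were 2-fold or more lower in Ti+Se-Met than in CTL and 0 were higher, with a median difference of -1.40 in log2(FPKM + 1), beside -1.53 in the Ti library. Gbp6 was at an FPKM of 34.7 in CTL, 10.6 with Ti and 9.69 with Ti+Se-Met, and Gbp9 at 27.9, 9.47 and 10.1. Gbp10, the member furthest below CTL, was 6.14-fold lower. Gbp2, the most abundant member, was at 44.9, 24.95 and 28.1. These genes are close copies of each other, so the split of reads between them is uncertain.

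Of 314 genes with symbols that start with Zfp, most of them zinc finger transcription factors, 18 (5.73%) were 2-fold or more lower and 1 (0.318%) higher. By 1.5-fold or more, 98 of them (31.2%) were lower, and their median was -0.38. Of 135 predicted genes with symbols that start with Gm, 21 (15.6%) were 2-fold or more lower and 6 (4.44%) higher, with a median of -0.50. Of 78 mitochondrial ribosomal protein genes, 2 (2.56%) were 2-fold or more higher and 0 lower. That share is near the 2.65% of all genes, and with equal sums 0 passed. Of the 78, 73 were above their CTL value, with a median of 0.41.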
